A study of Mus musculus with 18 samples.

Results

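The comparison described here is between cortical neurons of mice given risperidone and of mice given vehicle. It rests on 4 of the 18 RNA-seq libraries of the series: 2 risperidone and 2 vehicle libraries of the Thy1-captured neuron fraction, with 1 library of each treatment in batch 1 and 1 in batch 2. The other 14 libraries are the 2 clozapine neuron libraries and the microglia and astrocyte fractions of the same 3 treatments. Mice of the line B6;D2-Tg(S100B-EGFP)1Wjt/J, in which the S100B promoter drives a green fluorescent reporter, received risperidone (1 mg/kg), clozapine (10 mg/kg) or vehicle by intraperitoneal injection once a day from postnatal day 60 to 74. They were killed at postnatal day 75. The frontal cortices of 5 animals were pooled for each sample, so the spread between single animals was not measured. Each pool was dissociated and passed over a series of antibodies that removed endothelial cells, captured CD45+ microglia, removed oligodendrocytes and their precursors, and then captured Thy1+ neurons and HepaCAM+ astrocytes. The labels name adult males in 1 place and both sexes in another.

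Risperidone is an atypical antipsychotic. It blocks the dopamine D2 receptor (Drd2) and, with higher affinity, the serotonin 5-HT2A receptor (Htr2a), and it also binds adrenergic and histamine receptors. In frontal cortex, 5-HT2A receptors sit largely on pyramidal neurons, which receive dopamine input through D1 and D2 family receptors that act on cAMP signalling in opposite directions. Changes in transcripts after repeated dosing can concern the receptors themselves, the signalling cascades below them, genes that respond to neuronal activity, or metabolism.

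Reads assigned to genes came to 6.52 and 12.26 M in the risperidone neuron libraries, 11.25 and 13.39 M in the clozapine ones, and 6.88 and 11.38 M in the vehicle ones, batch 1 before batch 2 throughout. Over all 18 libraries the range was 4.71 to 13.39 M. The neuron label was checked against 20 pan-neuronal markers, whose summed level was 13236 to 22372 CPM (read counts scaled to a common library size) in the 6 neuron libraries, 2941 to 9446 CPM in microglia libraries and 3478 to 9328 CPM in astrocyte libraries. The neuron libraries also held RNA of other cells. The 20 oligodendrocyte markers summed to 17220 and 10396 CPM under risperidone, against 21028 and 8622 CPM under vehicle. In batch 1 these sums were above the pan-neuronal sums of the same libraries, 13236 CPM under risperidone and 14171 CPM under vehicle. The 20 astrocyte markers summed to 6901 and 14959 CPM under risperidone, against 6181 and 12861 CPM under vehicle. Risperidone batch 2 thus lay within the range of the astrocyte libraries, 14372 to 30694.5 CPM. The 20 microglia markers summed to 332.4 and 656.3 CPM under risperidone, against 220.3 and 2052 CPM under vehicle, so that vehicle batch 2 stood highest. Among the markers of other cells, 8 of 14 blood leukocyte genes and the ependymal genes Tmem212 and Ccdc153 were at 0 in at least 1 of the 4 libraries. In bulk libraries, fewer cells of a type and less RNA per cell cannot be told apart.

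A single gene passed the test. Gm36264, a long intergenic noncoding RNA on chromosome 13, fell under risperidone in both batches, and no gene was called higher. It was 1 of the 25510 genes tested (0.00392%) at an adjusted p under 0.05, with the edgeR quasi-likelihood test, Benjamini-Hochberg adjustment and batch as a block. More genes were called in each fit that left out 1 library, which leaves 1 library in a group. Those fits also tested another set of genes, 26554 to 29797. With both clozapine libraries left out 0 genes were called. Of the 208 genes called without vehicle batch 1, 206 were lower, and among the 8 with the smallest p were the inflammatory and myeloid genes Plau, Plaur, Tnf, Cxcl2, Cd14 and Ccl3. That fit rests on vehicle batch 2, the library with the most microglia marker RNA. The part of the microglia RNA in that count was not tested. Without the batch block 0 genes were called and 204 had an unadjusted p under 0.05, while DESeq2 with the block called 7, all lower.

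Beyond that gene, the batches shared little. Of the 25510 genes, 6073 (23.8%) were higher under risperidone in both batches, 6597 (25.9%) were lower in both, and 12840 moved in opposite directions. Across genes, which are not independent replicates, the risperidone minus vehicle difference in batch 1 and that in batch 2 had a Pearson r of -0.012 and a Spearman rho of -0.015. Among the 13643 genes with a mean of at least 5 CPM, r was 0 and 50.2% moved the same way. At least a 2-fold difference in both batches was reached by 284 genes that were higher (1.11%) and 304 that were lower (1.19%), and by 5 and 28 genes above 5 CPM. At an unadjusted p under 0.05 stood 175 genes that were higher (0.686%) and 441 that were lower (1.73%). Risperidone and vehicle levels did not overlap, in CPM, for 4652 genes (18.2%).

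**Figure D1:**
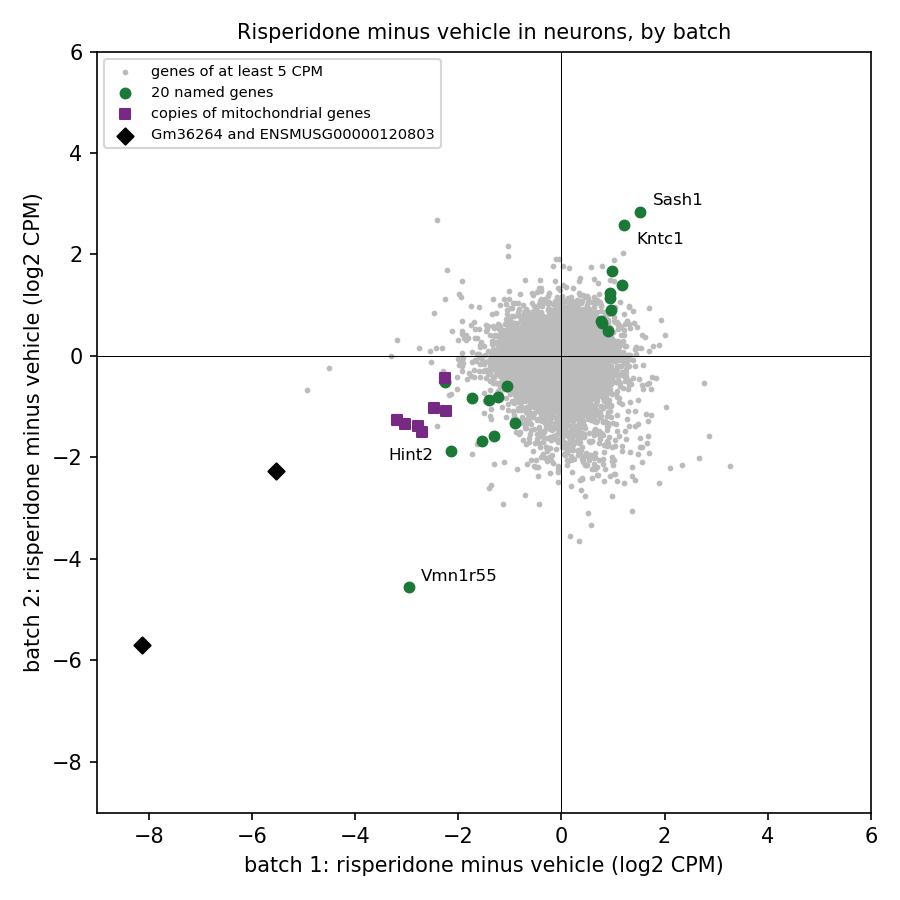
Risperidone minus vehicle difference in neurons, in log2 CPM, in batch 1 (horizontal axis) and batch 2 (vertical axis) for the 13643 genes of at least 5 CPM (grey), with the 20 named genes (green), the copies of mitochondrial genes on chromosome 1 (purple) and Gm36264 with ENSMUSG00000120803 (black); 1 gene lies outside the axes. The grey cloud shows no slope (r = 0), and Gm36264 lies at -8.14 and -5.69.

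Gm36264 (ENSMUSG00000113543.3) lies on the minus strand of chromosome 13, at chr13:9051468-9126487 of GRCm39, with 3068 exonic bases. It had 28 and 45 raw counts in the risperidone libraries, 310 and 42 in the clozapine libraries, and 7937 and 2350 in the vehicle libraries. In CPM, scaled over the 6 neuron libraries, these were 3.53 and 4.04 under risperidone, 30.4 and 3.37 under clozapine, and 1049 and 218.9 under vehicle. Both risperidone libraries and clozapine batch 2 stood at about the same low level, clozapine batch 1 stood above them, and both vehicle libraries stood far above all 4. The log2 difference, risperidone minus vehicle, was -6.81 (SE 0.65, adjusted p = 0.006386 with the edgeR quasi-likelihood test), and the differences within batches were -8.14 and -5.69. Without the batch block the difference was -7.38 with an adjusted p of 0.793. With a filter of at least 5 CPM it was -6.83 with an adjusted p of 0.0875, and with only the 4 risperidone and vehicle libraries in the fit -6.92 with an adjusted p of 0.0727. With 1 library left out it stayed called in each of the 6 fits, at -5.53 without risperidone batch 1, -8.46 without risperidone batch 2, -6.52 without vehicle batch 1, -7.13 without vehicle batch 2, and -6.94 and -6.95 without clozapine batch 1 and batch 2. The 250 bases before its annotated start and the first 50 bases of the transcript are shown because it is the gene the comparison turns on. They come from RefSeq on GRCm38.p6, at chr13:9076325-9076624 of the minus strand, an older build than that of the counts, and the transcribed bases are in capitals. RefSeq holds 2 such entries for the gene, and the first is shown.
Gm36264 promoter: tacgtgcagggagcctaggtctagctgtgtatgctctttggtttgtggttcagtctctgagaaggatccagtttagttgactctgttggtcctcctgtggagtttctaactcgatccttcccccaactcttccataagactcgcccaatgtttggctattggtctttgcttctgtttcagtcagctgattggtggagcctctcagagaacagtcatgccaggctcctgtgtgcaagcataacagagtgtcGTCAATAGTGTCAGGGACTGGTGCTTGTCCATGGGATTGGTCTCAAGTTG

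Unnamed features on the same stretch of chromosome 13 also had their lowest values under risperidone. They were singled out after their values were seen. ENSMUSG00000120803.1 (chr13:9178009-9180555, plus strand) had 5.67 and 7.36 CPM under risperidone, 19.3 and 18.5 CPM under clozapine, and 272.5 and 36.1 CPM under vehicle. ENSMUSG00002076052.1 (chr13:9159341-9159635, plus strand) had 0.50 and 0.27 CPM under risperidone, 1.28 and 4.01 CPM under clozapine, and 19.8 and 5720 CPM under vehicle. In both, each risperidone library was below each vehicle library, and the highest vehicle library was batch 1 for the first and batch 2 for the second. The log2 differences were -4.14 and -12.11, both with an adjusted p of 0.3473 by the edgeR quasi-likelihood test. Both features lie inside the span of Larp4b (chr13:9143917-9224487, plus strand), which encodes a La-related RNA-binding protein, and share 0 bases with a Larp4b exon. Larp4b itself had 66.4 and 88.8 CPM under risperidone, against 101.9 and 88.9 CPM under vehicle, a difference of -0.32. Its batch 2 values were nearly equal. Counting took no account of strand.

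**Figure D2:**
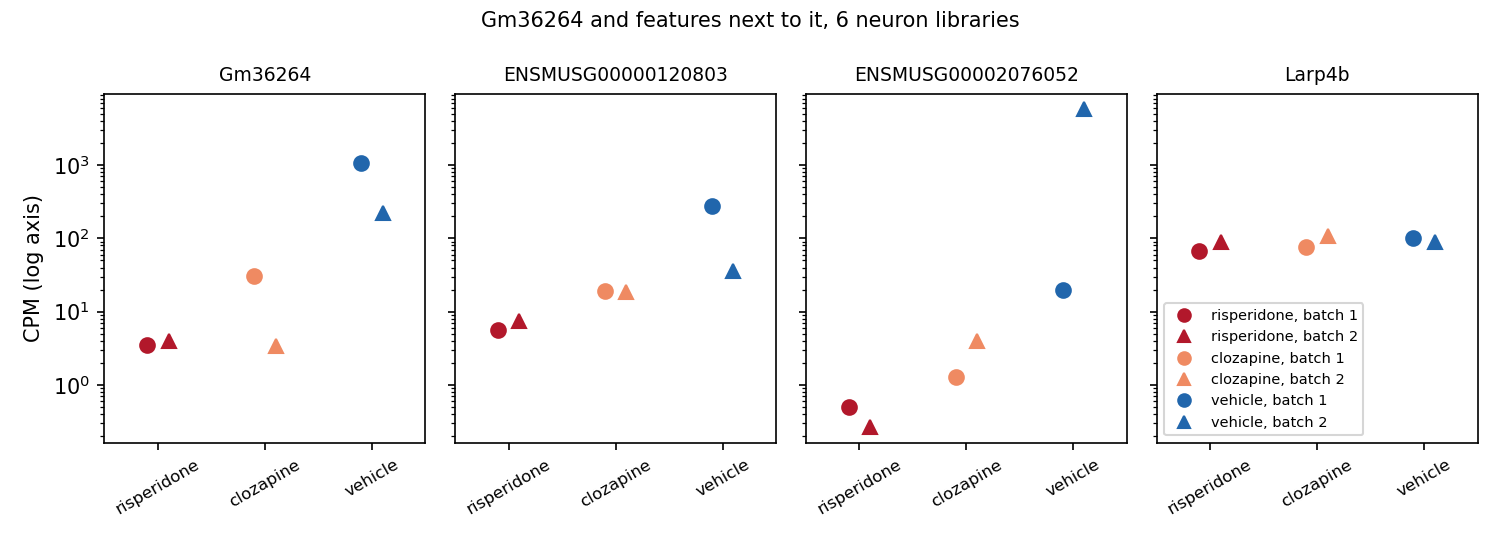
CPM (log axis) of Gm36264, of 2 unnamed features near it and of Larp4b in the 6 neuron libraries, by treatment, with circles for batch 1 and triangles for batch 2. For Gm36264 the risperidone libraries sit at 3.53 and 4.04 CPM and the vehicle libraries at 1049 and 218.9 CPM, while Larp4b lies within 66.4 to 108.3 CPM in all 6.

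The response could be compared between fractions, since each pool gave all 3. On CPM scaled over all 18 libraries, Gm36264 had 4.06 and 5.55 CPM in risperidone neurons, against 1256 and 282.3 CPM in vehicle neurons. In astrocytes it had 42.5 and 6.20 CPM under risperidone, against 12.7 and 4.63 CPM under vehicle. In microglia it had 3.22 and 2.76 CPM under risperidone, against 13.9 and 18.4 CPM under vehicle. Astrocyte levels were higher under risperidone within each batch, and microglia levels were lower. The risperidone response in neurons minus that in astrocytes was -8.30 (SE 1.14, adjusted p = 0.009548, edgeR quasi-likelihood test), and it was the 1 gene called of 37310 (0.00268%). Against microglia the difference of responses was -4.37 (SE 1.09, adjusted p = 1), and 0 genes were called of 37310 (0%), with 386 at an unadjusted p under 0.05 and 1 gene called by DESeq2. Without risperidone batch 1, without risperidone batch 2 and without vehicle batch 1, edgeR called 3, 2 and 1 genes against microglia, and 2, 6 and 2 against astrocytes. Without vehicle batch 2 it called 0 and 2. The difference of responses of Gm36264 against astrocytes was -7.29 and -9.43 without risperidone batch 1 and batch 2, and -7.28 and -9.10 without vehicle batch 1 and batch 2. Gm36264 reached an adjusted p of 0.008271 against microglia without risperidone batch 2. Among other named genes, the difference of responses was 3.18 for Mir1895 and -8.92 for Igkv4-58 against microglia and -2.83 for Rn7s6 against astrocytes, and none of these was called. The value of Igkv4-58 rests on levels near 0. In microglia it had 0.731 and 1.15 CPM under risperidone, against 0 and 0 CPM under vehicle. In neurons it had 1.3 and 0.617 CPM under risperidone, against 2.53 and 14.2 CPM under vehicle.

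Nuclear copies of mitochondrial genes were singled out after their values were seen. Mitochondrial DNA encodes subunits of the respiratory chain, and stretches of it have been copied into the nuclear genome as pseudogenes. The 37 features annotated on the mitochondrial chromosome had 0 counts in all 18 libraries. On chromosome 1 (chr1:24650616-24655278, minus strand, GRCm39) 7 unprocessed pseudogenes stand side by side that copy mt-Nd4, mt-Nd4l, mt-Nd3, mt-Co3, mt-Atp6, mt-Co2 and mt-Co1. In the GENCODE vM21 transcripts, 5 of the copies were identical to their mitochondrial gene over the aligned bases (294 to 876 bases), and Gm28438 and Gm29216 were 99.7% and 99.8% identical. Reads of the mitochondrial transcripts and of these copies therefore share their sequence, and which of them the counts came from cannot be told apart. The first 60 bases of an identical pair, and of the pair Gm28438 and mt-Nd3 that holds a single mismatch, show this. The mismatch is in capitals, T3C, with the mitochondrial base first and positions counted from the transcript's first base.
Gm28661: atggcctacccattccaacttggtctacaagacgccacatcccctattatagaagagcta
mt-Co2: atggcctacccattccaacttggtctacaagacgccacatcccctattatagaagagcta
Gm28438: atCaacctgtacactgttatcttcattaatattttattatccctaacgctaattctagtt
mt-Nd3: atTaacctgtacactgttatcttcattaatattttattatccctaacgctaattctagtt

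All 7 copies were lower under risperidone in both batches, and they share their source, so they are not 7 independent observations. Their counts together were 0.171% and 0.0998% of the library under risperidone, 0.135% and 0.133% under clozapine, and 0.847% and 0.208% under vehicle. Vehicle batch 1 stood far above the other 5 neuron libraries, and the groups did not overlap. Gm28439, the copy of mt-Nd4, had 122.7 and 76.6 CPM under risperidone, 180.4 and 95.9 CPM under clozapine, and 840.5 and 200.8 CPM under vehicle. Its log2 difference was -2.12 (SE 0.345, adjusted p = 0.3473, edgeR quasi-likelihood test), and -1.45 without vehicle batch 1. Gm28661, the copy of mt-Co2, had 185.7 and 112.3 CPM under risperidone, against 1205 and 316.8 CPM under vehicle, a difference of -2.20. The other 5 differed by -2.42 (Gm28437, the copy of mt-Co3) to -1.46 (Gm29216). None was called by edgeR with all 6 libraries, while DESeq2 called Gm28439, Gm28661, Gm10925, Gm10222 and Gm28438. With 1 library left out edgeR called 7 of the 7 without clozapine batch 1 and without risperidone batch 2, 6 without clozapine batch 2, 5 without vehicle batch 2, and 0 without vehicle batch 1 or without risperidone batch 1. In the other fractions the same 7 copies took 0.0487% and 0.0322% of microglia libraries under risperidone, against 0.044% and 0.0752% under vehicle, and 0.26% and 0.141% of astrocyte libraries under risperidone, against 0.298% and 0.146% under vehicle. Of 3 further copies on chromosome 2, with 95.9% to 97.6% identity, Gm13339 differed by -1.69, Gm13340 by -0.69 and Gm13341 by -0.96.

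**Figure D3:**
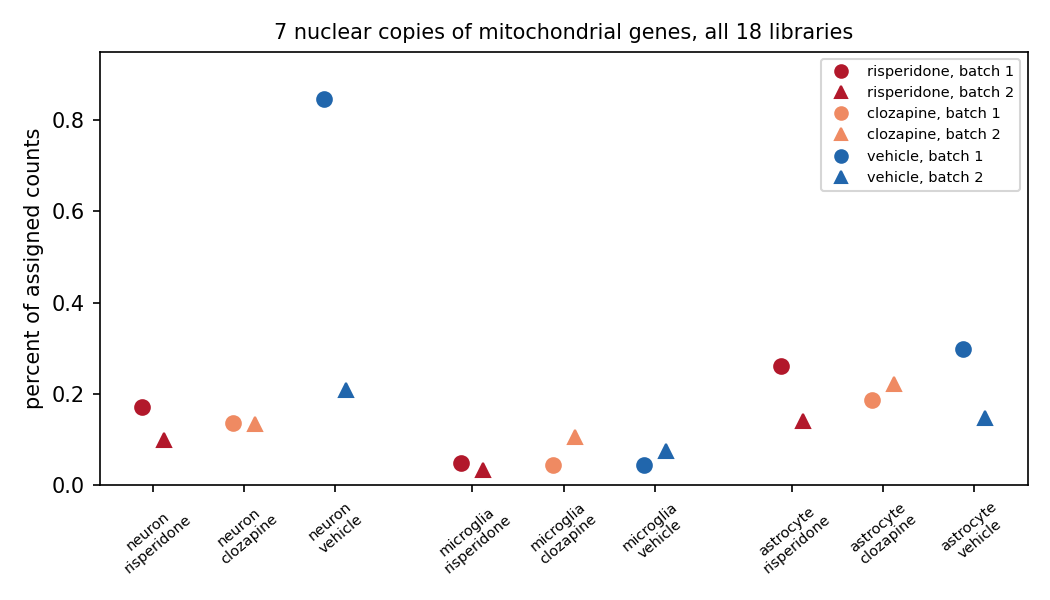
Summed counts of the 7 mitochondrial gene copies on chromosome 1 as a percent of assigned counts in each of the 18 libraries, by fraction and treatment, with circles for batch 1 and triangles for batch 2. Vehicle neurons of batch 1 stand alone at 0.847%, and the risperidone neuron libraries sit at 0.171% and 0.0998%.

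Below the called gene, 10 genes per direction were taken in order of unadjusted p among annotated genes that moved the same way in both batches and averaged at least 5 CPM in either group. All 20 had an adjusted p of 0.9999 by the edgeR quasi-likelihood test, so none is called, and since their p-values chose them, their values are a description. Sash1, which encodes a scaffold protein with SAM and SH3 domains, had 373.0 and 1001 CPM under risperidone, 271.9 and 118.5 CPM under clozapine, and 129.1 and 139.3 CPM under vehicle. Risperidone batch 2 was the highest by a wide margin, and the risperidone and vehicle libraries did not overlap. The log2 difference was 2.33 (SE 0.48, adjusted p = 0.9999, edgeR quasi-likelihood test), and 1.13 without risperidone batch 2. Spred3, a Sprouty-related inhibitor of Ras and MAP kinase signalling, had 103.2 and 116.3 CPM under risperidone, 53.1 and 82.1 CPM under clozapine, and 53.4 and 52.8 CPM under vehicle. Both vehicle libraries were nearly equal and both risperidone libraries stood above all others, a difference of 1.04 (SE 0.24).

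Cdh8, a cadherin of synaptic adhesion, had 44.4 and 54.5 CPM under risperidone, against 26.0 and 33.9 CPM under vehicle (difference 0.72, 0.76 and 0.68 within batches). Pcsk1, the convertase that cleaves prohormones and proneuropeptides, had 55.3 and 81.5 CPM under risperidone, against 29.3 and 58.3 CPM under vehicle, with overlap between the groups, and batch 2 was higher in both. Ctdsp1, a phosphatase that works with the REST repressor of neuronal genes, had 16.0 and 20.1 CPM under risperidone, against 8.06 and 10.6 CPM under vehicle. Slc7a4, of the cationic amino acid transporter family, had 41.5 and 65.7 CPM under risperidone, against 23.8 and 41.9 CPM under vehicle, and also overlapped. The kinetochore gene Kntc1 had 6.68 and 8.25 CPM under risperidone, against 2.77 and 1.21 CPM under vehicle, a difference of 2.02 at a low level. Sdr42e1, Fra10ac1 and Catsper2 differed by 1.37, 1.10 and 1.32 at 5.29 to 12.6 CPM under risperidone. The groups did not overlap in 8 of these 10, against 18.2% of all genes tested, a count that the choice by p largely fixed, and the clozapine mean lay between the other two means for 9.

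The 10 lower genes are given in the same way. Txnip, which binds thioredoxin and restrains glucose uptake, had 5.04 and 8.34 CPM under risperidone, 13.1 and 11.2 CPM under clozapine, and 15.1 and 26.9 CPM under vehicle. The groups did not overlap, and the log2 difference was -1.64 (SE 0.35, adjusted p = 0.9999, edgeR quasi-likelihood test), with -1.54 and -1.67 within batches. Usmg5, a small subunit associated with mitochondrial ATP synthase, had 16.0 and 17.8 CPM under risperidone, 50.5 and 41.5 CPM under clozapine, and 37.8 and 31.4 CPM under vehicle, so that clozapine and risperidone lay on opposite sides of vehicle. Hint2, a mitochondrial hydrolase, had 1.13 and 1.88 CPM under risperidone, against 5.68 and 7.45 CPM under vehicle, a difference of -2.14. Rplp0, a protein of the ribosomal stalk, had 53.7 and 72.1 CPM under risperidone, 101.6 and 105.3 CPM under clozapine, and 112.1 and 108.3 CPM under vehicle, a difference of -0.82. The clozapine libraries of Rplp0 were close to vehicle.

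The cell type genes in this set were Calb2 and Gjb1. Calb2, the calcium-binding protein calretinin of a class of interneurons, had 6.93 and 7.18 CPM under risperidone, 14.8 and 59.9 CPM under clozapine, and 17.4 and 21.9 CPM under vehicle. Gjb1, the connexin of myelinating glia, had 6.30 and 5.83 CPM under risperidone, against 21.3 and 10.5 CPM under vehicle. In both genes the 2 risperidone libraries were nearly equal and below all other neuron libraries. Vmn1r55, annotated as a vomeronasal receptor, had 26.2 and 3.68 CPM under risperidone, 2.45 and 11.0 CPM under clozapine, and 205.1 and 90.8 CPM under vehicle, a difference of -3.46. Its response in neurons minus that in astrocytes was -5.75 (adjusted p = 0.1398, edgeR quasi-likelihood test). On CPM scaled over all 18 libraries, Vmn1r55 had 313.8 and 17.7 CPM in risperidone astrocytes, against 32.2 and 16.6 CPM in vehicle astrocytes. The astrocyte side of that difference thus came from batch 1. The Y RNA Rny3 had 21.8 and 13.5 CPM under risperidone, against 104.7 and 19.3 CPM under vehicle, and was the 1 gene of the 10 whose groups overlapped. The ubiquitin ligase Rnf181 and the snoRNA host gene Snhg6 differed by -1.13 and -1.18. The clozapine mean lay between the others for 6 of the 10.

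Some of the 20 were called in fits that left out 1 library. Those fits also tested another set of genes, 26554 to 29797 against 25510. Such calls can therefore not be credited to the omitted library alone. With both clozapine libraries left out 0 genes were called. With 1 library left out each of the 20 kept its direction. The difference ran from 1.13 to 3.18 for Sash1, 0.82 to 1.25 for Spred3 and -1.91 to -1.31 for Txnip. It ran from -5.45 to -2.48 for Vmn1r55, -2.36 to -1.96 for Hint2 and -1.28 to -0.78 for Usmg5. For Rny3 it was -2.2 to -0.6, and for Calb2 -2.04 to -0.98.

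**Figure D4:**
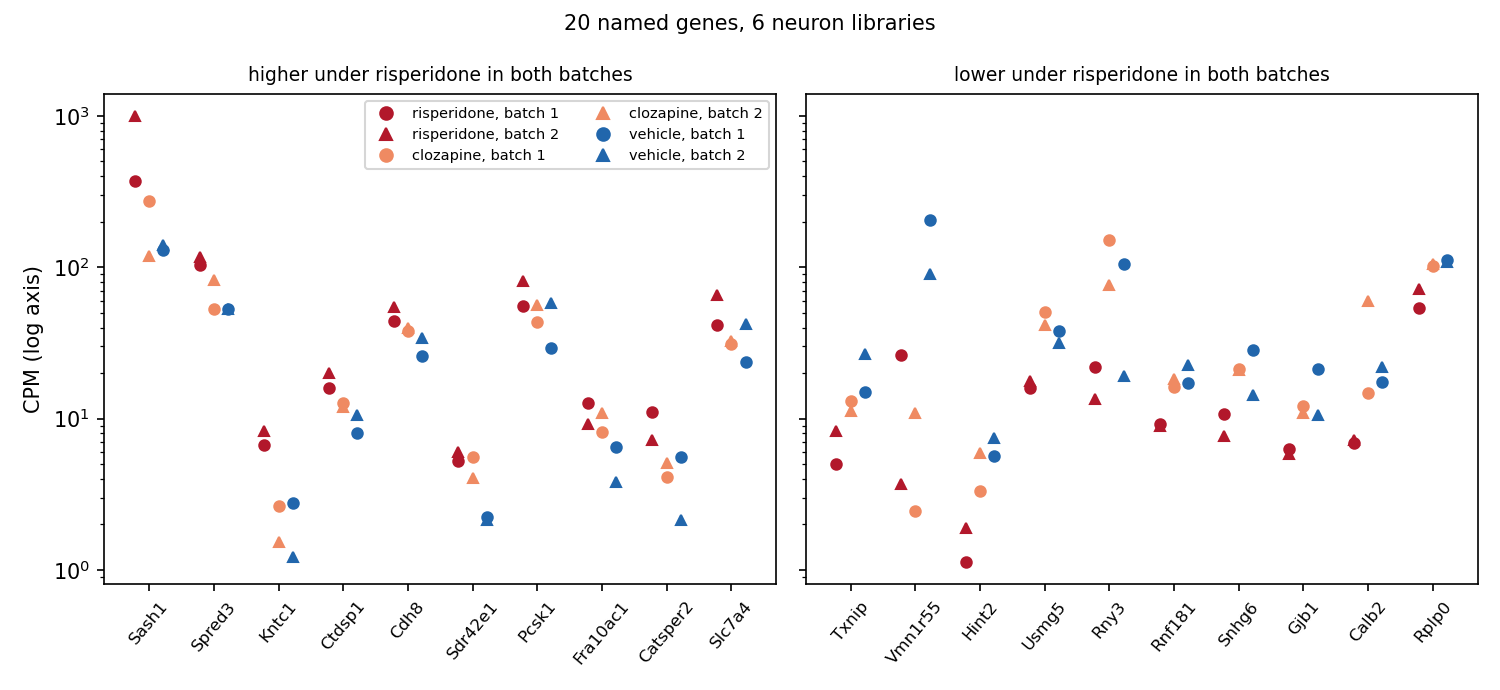
CPM (log axis) of the 20 named genes in the 6 neuron libraries, with genes higher under risperidone in both batches on the left and genes lower in both on the right; red is risperidone, orange clozapine and blue vehicle, with circles for batch 1 and triangles for batch 2. Sash1 reaches 1001 CPM in risperidone batch 2, and the risperidone and vehicle points do not overlap in 8 of 10 genes on the left and 9 of 10 on the right, against 18.2% of all genes tested; the genes were chosen by p.

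Of 20 receptors that risperidone binds or that belong to the same families, 17 passed the filter on low counts, and none was called. Their median log2 difference was 0.11, with -0.03 and 0.10 within batches, against -0.02 over all genes tested. Of the 17, 5 (29.4%) were higher and 4 (23.5%) lower in both batches, near the shares over all genes. Drd2 and Htr2a encode the receptors most tied to the drug. Drd2 had 5.79 and 17.9 CPM under risperidone, 9.12 and 5.93 CPM under clozapine, and 8.19 and 14.7 CPM under vehicle, a difference of -0.01 (SE 0.45). Htr2a had 14.1 and 29.0 CPM under risperidone, 16.9 and 26.8 CPM under clozapine, and 18.6 and 27.1 CPM under vehicle, a difference of -0.14 (SE 0.26). In both genes risperidone was lower than vehicle in batch 1 and higher in batch 2.

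Of the 17 receptors, 2 (11.8%) were higher and 1 (5.88%) was lower at an unadjusted p under 0.05. Over all genes tested these shares were 0.686% and 1.73%. Hrh2, the histamine H2 receptor, had 25.7 and 15.9 CPM under risperidone, 13.8 and 14.4 CPM under clozapine, and 12.7 and 11.4 CPM under vehicle, a difference of 0.76 (SE 0.30). Adra1b, an alpha-1 adrenergic receptor, had 9.45 and 15.4 CPM under risperidone, 7.26 and 8.41 CPM under clozapine, and 6.61 and 7.64 CPM under vehicle, a difference of 0.78 (SE 0.34). Both risperidone libraries were above all other neuron libraries in these 2 genes. Htr1d, a serotonin autoreceptor at axon terminals, had 1.64 and 0.628 CPM under risperidone, 1.18 and 0.641 CPM under clozapine, and 3.17 and 4.75 CPM under vehicle, a difference of -1.95 (SE 0.78) at a level near the filter. Among the other dopamine and adrenergic receptors, Drd1 differed by -0.29, Adra1a by -0.01, Adra1d by 0.59, Adra2a by -0.60 and Adra2c by -0.29. Among the serotonin and histamine receptors, Htr1a differed by 0.34, Htr1b by 0.02, Htr2c by 0.11, Htr5a by 0.36, Htr6 by 0.33, Htr7 by 0.28 and Hrh1 by 0.32. All 17 had an adjusted p of 0.9999.

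Below the receptors, none of 36 genes of dopamine and cAMP signalling had an unadjusted p under 0.05. Of the 36, 10 (27.8%) were higher and 8 (22.2%) lower in both batches, against 23.8% and 25.9% over all genes tested. Their median was -0.04. The smallest p was that of Pde1a, a calcium-activated phosphodiesterase, at 112.3 and 165.9 CPM under risperidone, against 82.7 and 116.9 CPM under vehicle. Of 30 activity-regulated genes, 9 were higher and 9 lower in both batches, with a median of 0.11. Bdnf, the neurotrophin, had 28.2 and 34.1 CPM under risperidone, against 14.0 and 29.6 CPM under vehicle, a difference of 0.58. The MAP kinase phosphatase Dusp1 had 32.1 and 61.1 CPM under risperidone, against 44.5 and 102.3 CPM under vehicle, a difference of -0.62. Bdnf and Dusp1 thus differed in opposite directions. At an unadjusted p under 0.05 stood 2 genes of this list that were lower, Dusp1 and Ier2 (difference -0.81), and 0 that were higher. The lower ones were 6.67% of the list, against 1.73% over all genes. Both also belong to the list of dissociation response genes given below, so the 2 lists are not separate observations. None of the 30 was called.

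The list with most members lower at an unadjusted p under 0.05 was that of genes known to be induced during tissue dissociation. None of its 27 genes was called. Of the 27, 16 (59.3%) were lower in both batches and 0 higher in both, against 25.9% and 23.8% over all genes. At an unadjusted p under 0.05 stood 11 (40.7%), all lower, against 1.73% lower over all genes. The list median was -0.52, with -0.47 and -0.51 within batches. Klf6, a zinc finger factor induced by injury, had 36.0 and 73.0 CPM under risperidone, 41.0 and 60.6 CPM under clozapine, and 48.8 and 193.1 CPM under vehicle, a difference of -0.98. Btg1, an antiproliferative factor, had 16.5 and 32.0 CPM under risperidone, 18.5 and 28.6 CPM under clozapine, and 20.9 and 91.3 CPM under vehicle, a difference of -1.01. In both genes vehicle batch 2 stood far above the rest, and it is also the library with the highest microglia marker sum, 2052 CPM. Klf4, a factor of the same family as Klf6, had 11.3 and 21.2 CPM under risperidone, 13.8 and 15.1 CPM under clozapine, and 21.8 and 33.5 CPM under vehicle, a difference of -0.79. Without vehicle batch 2 the list median was -0.27, and without risperidone batch 1 it was -0.26. The part of dissociation, of the microglia RNA or of the drug in these values was not tested.

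Lists of stress and hormone responses had more members lower than higher in both batches. The share lower in both was 43.8% for the integrated stress response and 37.5% for glucocorticoid-responsive genes. It was 25% for heat shock genes, near the 25.9% over all genes tested. Each of these lists shares members with the dissociation list, such as Atf3, Nfkbia and Hspa8, so they do not count as separate observations. Of 16 genes of the integrated stress response, 7 were lower in both batches and 0 higher, with a median of -0.32 that was 0 without vehicle batch 2. Atf4, the central factor of that response, had 59.8 and 97.6 CPM under risperidone, against 73.1 and 175.6 CPM under vehicle, a difference of -0.58. Of 16 glucocorticoid-responsive genes, 6 were lower and 3 higher in both batches. Sgk1, a kinase induced by corticosterone, had 23.9 and 38.0 CPM under risperidone, 27.9 and 32.9 CPM under clozapine, and 44.4 and 52.7 CPM under vehicle, a difference of -0.67. The groups did not overlap for Sgk1, with clozapine among the risperidone values. Among 20 heat shock genes and chaperones the median was 0.00, while Hspb1, a small heat shock protein, had 3.53 and 1.97 CPM under risperidone, against 8.99 and 9.31 CPM under vehicle.

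Genes of mitochondria and ribosomes were more often lower than higher. Of 34 nuclear genes of oxidative phosphorylation, 21 were lower and 4 higher in both batches, with a median of -0.22 and 5 lower at an unadjusted p under 0.05. Over all genes tested these shares were 25.9% lower and 23.8% higher in both batches, and 1.73% lower at that p. Atp5c1, the gamma subunit of ATP synthase, had 52.9 and 53.4 CPM under risperidone, 73.7 and 112.1 CPM under clozapine, and 75.7 and 84.5 CPM under vehicle, a difference of -0.59. Ndufb9, a subunit of complex I, had 44.1 and 48.6 CPM under risperidone, 113.2 and 85.5 CPM under clozapine, and 122.5 and 58.9 CPM under vehicle, a difference of -0.88. In both genes the risperidone libraries were the lowest of the 6. Of 34 cytosolic ribosomal protein genes, 18 were lower and 2 higher in both batches, with a median of -0.33 that came mostly from batch 1 (-0.66, against -0.03 in batch 2). Without risperidone batch 1 the medians of both lists were 0.01 and 0.02. None of the 68 genes was called.

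These lists hold short transcripts, and length moved with the difference. Among protein-coding genes of at least 5 CPM, the median difference was -0.26 for exonic lengths up to 1000 bases and -0.15 for lengths over 1000 and up to 2000 bases, against 0.02 above 8000 bases. The 232 such genes that were lower at an unadjusted p under 0.05 had a median length of 3065 bases, the 87 that were higher 3892 bases, and all 11814 of them 4961.5 bases. The part of length in the list medians was not tested.

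On the higher side stood lists of synaptic receptors and channels, by smaller margins. Over all genes tested, 23.8% were higher and 25.9% lower in both batches. Of 31 voltage-gated channel genes, 15 were higher and 3 lower in both batches, with a median of 0.16 and 0 at an unadjusted p under 0.05. Kcnd2, which encodes the A-type potassium channel Kv4.2, had 94.4 and 195.0 CPM under risperidone, 95.1 and 137.2 CPM under clozapine, and 64.1 and 142.2 CPM under vehicle, a difference of 0.50. Scn2a, a sodium channel of axons, had 406.6 and 488.4 CPM under risperidone, against 242.0 and 467.3 CPM under vehicle, a difference of 0.40. In both genes risperidone exceeded vehicle within each batch, while levels across batches overlapped. Of 14 GABA-A and GABA-B receptor genes, 8 were higher and 2 lower in both batches, with a median of 0.18 that was -0.03 without vehicle batch 1. Of 7 NMDA receptor genes, 4 were higher and 2 lower in both, with a median of 0.27 that was 0.02 without risperidone batch 2 and 0.01 without vehicle batch 1. Of 20 neuropeptide genes, 9 were higher and 1 lower in both, with a median of 0.26 that was -0.21 without vehicle batch 1. These lists hold long transcripts apart from the neuropeptides, with median exonic lengths of 10137 bases for channels, 6614 for GABA receptors, 9700 for NMDA receptors and 1548 for neuropeptides.

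Of 28 genes of presynaptic release, 9 (32.1%) were higher and 1 (3.57%) lower in both batches, with a median of 0.06. Over all genes tested these shares were 23.8% and 25.9%. Sv2a, a synaptic vesicle protein, had 251.5 and 450.8 CPM under risperidone, against 182.8 and 402.6 CPM under vehicle, a difference of 0.30. Sterol and fatty acid synthesis is a pathway known to respond to antipsychotics in cultured cells. Of its 29 genes, 8 (27.6%) were higher and 5 (17.2%) lower in both batches, with a median of 0.01. Dhcr7, the last enzyme of cholesterol synthesis, had 25.7 and 29.5 CPM under risperidone, 20.9 and 18.6 CPM under clozapine, and 14.3 and 24.9 CPM under vehicle, a difference of 0.52. Each risperidone library was above all 4 others for Dhcr7, which was not called. Of 19 circadian clock genes, 9 were higher and 1 lower in both batches, with a median of 0.09, and Per1 had 88.1 and 105.8 CPM under risperidone, against 71.5 and 88.3 CPM under vehicle.

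Markers of neuron classes were counted in the same way, and the difference between classes was not tested. Of 22 GABAergic interneuron markers, 12 (54.5%) were lower and 4 (18.2%) higher in both batches, against 25.9% and 23.8% over all genes tested. Their median was -0.15, and -0.29 to -0.08 with 1 library left out. Gad1, the main GABA-synthesising enzyme, had 67.5 and 185.9 CPM under risperidone, 98.2 and 366.1 CPM under clozapine, and 100.3 and 271.2 CPM under vehicle, a difference of -0.56. Pvalb, the marker of fast-spiking interneurons, had 8.44 and 11.3 CPM under risperidone, 13.9 and 20.6 CPM under clozapine, and 10.4 and 21.5 CPM under vehicle, a difference of -0.64. Within each batch risperidone was below vehicle for both, and Calb2 above belongs to the same list. These genes were named by p, and differences over the list ran from -1.47 to 0.59. The neuropeptide gene Vip went the other way. It had 10.8 and 19.1 CPM under risperidone, against 5.02 and 16.9 CPM under vehicle, a difference of 0.59. Of 22 glutamatergic layer genes, 9 were higher and 4 lower in both batches, with a median of 0.15 that was -0.09 within batch 1 and -0.16 without risperidone batch 2. Lamp5 had 84.7 and 153.2 CPM under risperidone, against 39.0 and 129.5 CPM under vehicle, a difference of 0.64. That was the highest difference of the list, which ran down to -0.66. The 20 pan-neuronal markers had a median of -0.02.

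Marker lists of microglia and oligodendrocytes differed in opposite directions in the 2 batches. The microglia list had a median of 0.76 in batch 1 and -1.58 in batch 2, and the oligodendrocyte list -0.87 in batch 1 and 0.36 in batch 2. Of 20 astrocyte markers, 11 (55%) were higher and 1 (5%) lower in both batches, against 23.8% and 25.9% over all genes tested. Their median was 0.13, and -0.23 without vehicle batch 1. The sex-linked genes differed between libraries as well. Xist, expressed from the inactive X chromosome, had 312.5 and 289.1 CPM in risperidone neurons, against 313.3 and 127.2 CPM in vehicle neurons on the scale of all 18 libraries. On that scale the Y-linked Ddx3y had 37.4 and 29.4 CPM under risperidone, against 42.4 and 47.1 CPM under vehicle. Both genes were detected in each of these pools, and the part of sex in the results was not tested.

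**Figure D5:**
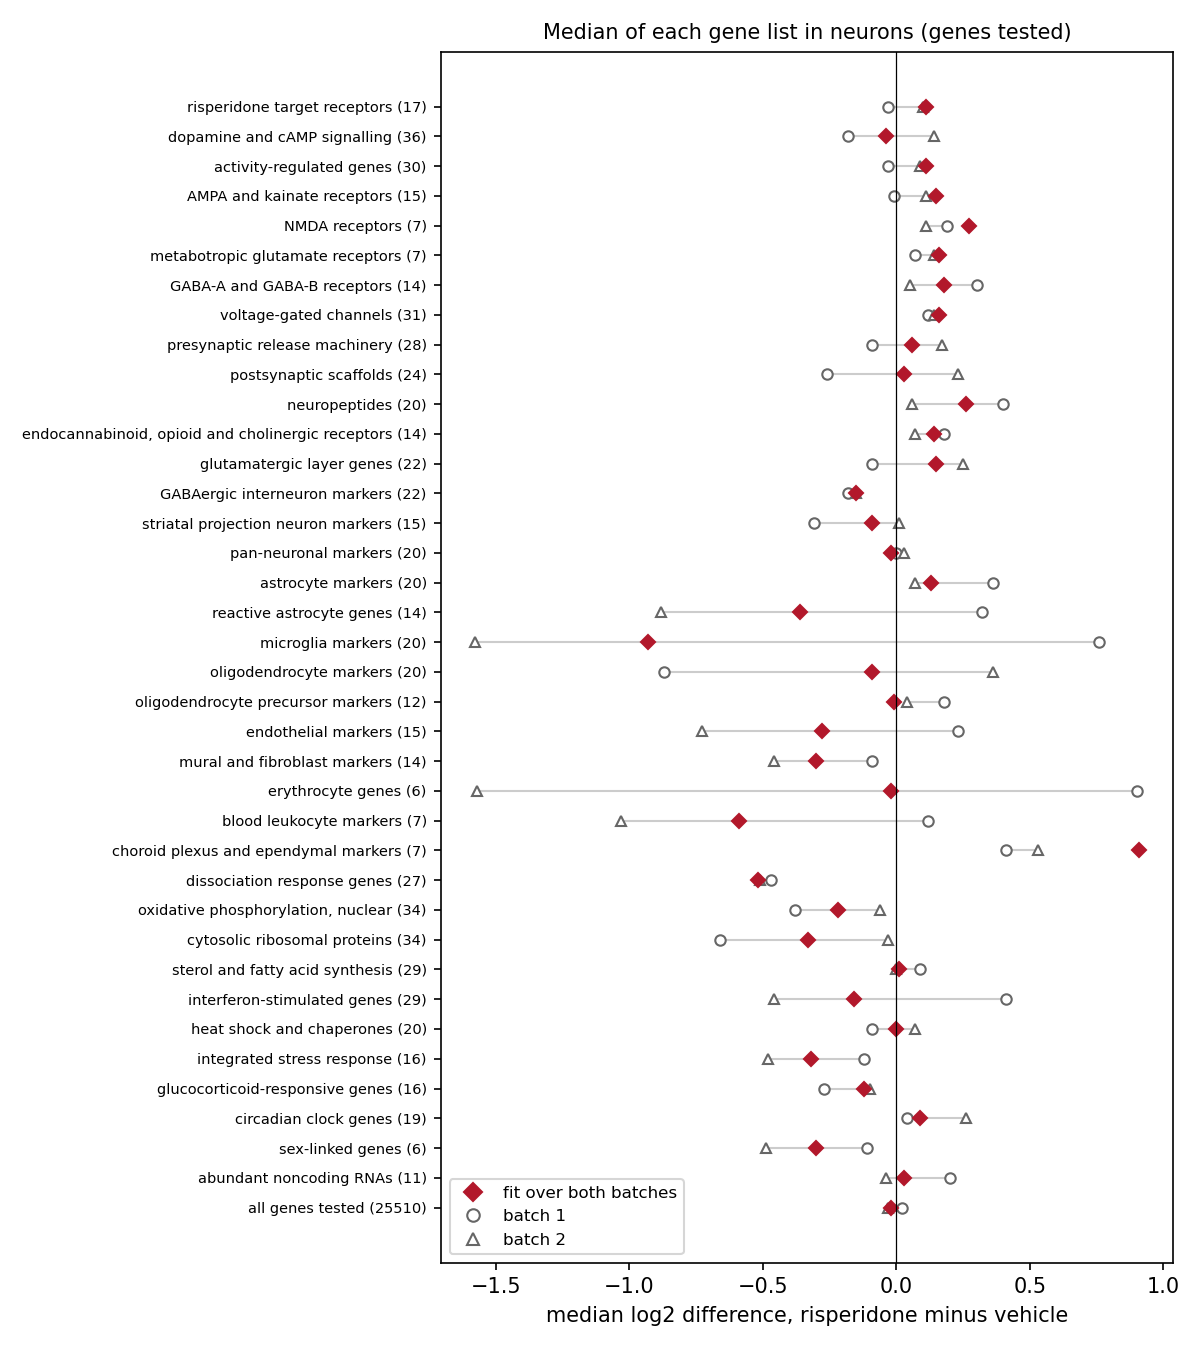
Median log2 difference, risperidone minus vehicle, of each gene list in neurons (tested genes in brackets), with red diamonds for the fit over both batches, open circles for batch 1 and open triangles for batch 2. Dissociation response genes lie near -0.5 in both batches, voltage-gated channels just above 0 in both, and microglia markers at 0.76 and -1.58.

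Single libraries held most of the reads of 5 genes, namely Pqlc2, Gm36264, ENSMUSG00002076052.1, Edn1 and Gm48654, with at least 80% of the CPM of the 6 neuron libraries in 1 of them and a peak of at least 50 CPM. Pqlc2, a lysosomal amino acid transporter, had 310.3 and 20.4 CPM under risperidone, 381.7 and 64.5 CPM under clozapine, and 7014 and 24.0 CPM under vehicle. Edn1, the peptide endothelin, had 4.16 and 36.8 CPM under risperidone, 1.57 and 0.801 CPM under clozapine, and 2.25 and 203.5 CPM under vehicle. Of the 5 genes, 4 had their peak in a vehicle library and 0 in a risperidone library. Gm36264 was the 1 of them that was called, with 80.1% in vehicle batch 1.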

How the data were processed

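Per the labels' protocols, QIAseq FastSelect libraries depleted of ribosomal RNA and primed with random hexamers and oligo-dT were sequenced as paired ends. Per the file headers, the authors' deposited values are raw counts per gene from featureCounts 2.0.8 on GRCm39, over exons, with overlaps allowed and no strand option, so overlapping, antisense and near-identical genes are uncertain. FastQC is named in the submitters' processing notes. No aligner is named in them or in the labels. Nothing says whether the pools came from separate litters or days beyond the batch label.

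Symbols came from GENCODE vM21 by identifier (52029 of 56953 identifiers, 96.2% of counts). The 6 neuron libraries were fitted in R 4.3.3 with edgeR 4.0.16 (filterByExpr, TMM, quasi-likelihood test) on treatment and batch, with 2 residual degrees of freedom. The clozapine libraries entered to estimate the spread, with a biological coefficient of variation of 0.314. Genes at a Benjamini-Hochberg adjusted p under 0.05 over all 25510 were called. SE is the absolute log2 difference over the square root of F. Differences within batches are log2 CPM with a prior count of 2. Differences between fractions used all 18 libraries with pool as a block. DESeq2 1.42.0 was an alternative, and blastn 2.17.0 aligned the mitochondrial copies. Scripts were tested on simulated data, in which all changed genes were drawn from those with a mean of at least 5 CPM. Recovery of effects in genes below that level was not simulated. For risperidone against vehicle in neurons, the test found 20 out of 100 simulated 2-fold effects. It found 87 out of 100 when the effect was 4-fold, and 19 other genes were called too. Between neurons and microglia, 24 out of 200 simulated 4-fold effects were found, with 1 other gene called. Real differences of these sizes can therefore go uncalled, and a call can be false.

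The labels give the batch as the replicate number. Deviations from group means of same-numbered libraries correlated at r = 0.562 for risperidone and vehicle, 0.286 for risperidone and clozapine and 0.177 for vehicle and clozapine, over 13563 genes. With 2 libraries per group p-values measure only a spread between pools, the clozapine neuron pools among them. For each gene the edgeR test draws that spread largely from the other genes, with 9.74 prior degrees of freedom against 2 residual ones. Counts carry counting error only for single libraries.

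The members and lists were chosen with earlier results of these data known. The genes named are the 10 annotated genes per direction with the smallest p among those that moved the same way in both batches at 5 CPM or more (12 and 15 unnamed or predicted features and the called gene were passed over), all target receptors tested, up to 3 genes by p per list, and up to 3 per test between fractions. Scn2a, Ddx3y, Edn1, Pqlc2 and the features on chromosomes 1, 2 and 13 and in single libraries were picked after their values were seen. A combined table of the same counts was not used. Some genes that the rule would name are not reported here.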

Additional observations from a re-analysis of the deposited data

Results flagged for a closer look

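The risperidone response of Gm36264 in neurons differed from that in astrocytes by -8.3 on the log2 scale (SE 1.14, adjusted p = 0.009548, edgeR quasi-likelihood test of the interaction over 18 libraries), which is the difference between groups that drew attention here. Levels were lower under risperidone in 2 of 2 neuron batches and higher in 2 of 2 astrocyte batches. Over the alternatives the adjusted p ran between 7.528e-09 and 0.03215.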

How the results depend on the processing

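The count of 1 called gene, moving the same way in both batches, was 0 without the replicate block, 0 with a mean of at least 5 CPM (392 genes at an unadjusted p under 0.05) and 0 with only the 4 risperidone and vehicle libraries (709 at that level). It was 7 with DESeq2, 2 with all 18 libraries and 55 without a filter on low counts, 37 of them the same way. With 1 library left out it ran between 7 and 208, and with a clozapine library left out 57 to 58 moved the same way. That second count has no value without a risperidone or vehicle library. RLE size factors and both other thresholds gave 1. Fits without 1 library leave 1 residual degree of freedom, as does the fit with 4 libraries. The lone library is assumed to vary like the others. A lone clozapine library is fitted by its own treatment term and adds nothing to the residual spread. Fits without 1 library tested 26554 to 29797 genes, against 25510, and those between fractions 41576 to 41706, against 37310. Why calls without 1 clozapine library differ from the 0 with 4 libraries was not tested. The 588 genes past 2-fold in both batches were 1843 at 1.5-fold, 36 at 5 CPM or more and 797 with a prior count of 0.5. Against microglia DESeq2 called 1 gene and fits without 1 library 0 to 3. Against astrocytes these were 2, and 2 to 6.

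The log2 difference of Gm36264 stayed below 0 in every setting. Of 931 values over 72 genes, 806 kept their direction and side of the threshold, 94 became called and 28 turned, all but those of Larp4b and Pqlc2 for receptors. Drd2 was 0.03 with all 18 libraries, 0.02 with DESeq2 and with RLE, 0.01 without a filter and 0.05 without the block. Adra1a was 0.01 with 4 libraries, with all 18 and at 5 CPM or more, 0.02 with DESeq2 and with RLE, and 0 without a filter. With 1 library left out the ranges were -0.95 to 0.64 for Drd2, -0.11 to 0.09 for Adra1a, -0.09 to 1.15 for Adra1d, -1.09 to 0.25 for Adra2c, -0.1 to 0.75 for Htr1a, -0.49 to 0.44 for Htr1b, -0.4 to 0.1 for Htr2a, -0.31 to 0.54 for Htr2c, -0.03 to 0.62 for Htr7, -0.66 to 0.02 for Larp4b and -4.82 to 0.15 for Pqlc2. The cause was not tested. Of 480 list medians 380 moved by less than the spread between batches. With 2 pools per group and 6.52 to 13.39 M counts, differences of genes near 5 CPM are known only roughly.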
